A study of Mus musculus with 40 samples.

Results

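The regions described here are 3225 stretches of chromatin that carried a peak of H3K4me1, the histone mark of enhancers, in both haematopoietic progenitor groups with the NUP98-HOXD13 fusion and in none of the groups without it. They were found by merging the H3K4me1 peaks of 6 genotypes wherever peaks shared at least 1 bp, on chromosomes 1 to 19 and X. This gave 181769 union regions. A list held a region if it had a peak there, and the 3225 chosen regions, 1.77% of all, were held by the NUP98-HOXD13 and the Flt3-ITD/NUP98-HOXD13 list and by no other list. They spanned 1673 kb in all, with a median width of 460 bp (184 to 4475 bp). H3K4me1 peaks therefore chose the regions, so their H3K4me1 values are given as a description and nothing is tested with them. H3K27ac, position and gene content were not used by the rule.

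The study mapped H3K4me1 and H3K27ac by ChIPmentation, in which the transposase Tn5 adds sequencing adapters to immunoprecipitated chromatin, in haematopoietic stem and progenitor cells sorted from mice aged 21 days. NUP98-HOXD13 mice carried the fusion alone and Flt3-ITD/NUP98-HOXD13 mice also an internal tandem duplication in the receptor kinase FLT3, and the 4 lists without the fusion came from Flt3-ITD, Runx1-het, Flt3-ITD/Runx1-het and wild-type mice. The sample names of the Runx1-het groups join Runxf and Vav. For the exact alleles, the Cre driver and the promoter of the fusion transgene the sources used here give no details. Each genotype and mark was deposited as 1 peak list pooled over 3 samples, or over 4 for H3K27ac in NUP98-HOXD13 and for both marks in Flt3-ITD/NUP98-HOXD13. Values per animal are not used, so the spread among animals is unknown and no test between genotypes was run. Intervals are 95% Wilson intervals and cover only counting error. Neighbouring regions are not independent, so the intervals are too narrow where regions cluster. Read depth is unknown, and a missing peak means that the peak caller reported none.

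H3K4me1 marks enhancers that are poised or active, and H3K27ac separates the active ones. NUP98-HOXD13, a leukaemia fusion, joins the phenylalanine-glycine repeats of a nuclear pore protein to the DNA-binding homeodomain of HOXD13. In mouse blood cells it is known to keep developmental HOX genes switched on. HOX proteins bind DNA together with the cofactors of the PBX and MEIS families, and their expression normally falls as progenitors mature.

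The 6 H3K4me1 lists held 72676 to 117034 peaks, and the fusion lists 95248 and 95906. Strength differed more than length: 6883 peaks of the NUP98-HOXD13 list had a −log10 q of at least 5, against 19730 to 25000 in the other 5 lists. Promoters of stem and progenitor genes (Kit, Cd34, Meis1 and others) had an H3K27ac peak for 8 or 9 of 9 genes in every list. Promoters of T and NK cell markers had one for 0 or 1 of 7, of B cell and of erythroid markers for 0 or 1 of 4, of granulocyte markers for 1 or 2 of 4 and of monocyte markers for 0 or 1 of 3. Hba-a1, Cd3e, Cd8a, Pax5 and Ebf1 had no promoter H3K27ac peak in any list, nor did the 5 genes of other tissues. Promoter H3K4me1 separated the markers less: stem and progenitor genes had a peak for 3 of 9 in NUP98-HOXD13, 5 of 9 in the double mutant and 4 to 7 of 9 in the other lists, with none at Kit or Meis1 in any list. Granulocyte markers had one for 3 of 4 and 2 of 4 in the fusion lists and 0 to 3 in the others, and monocyte markers for 2 of 3 in both fusion lists and 1 or 2 in the others. The labelled cell type thus matched its markers by promoter H3K27ac. Promoter H3K4me1, of a mark of enhancers, is not used here to judge the cell type. The part of other cells in the results below was not tested.

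The promoter windows of 4 genes show sequence at or beside the chosen regions. The windows run from 250 bases before to 50 bases after the RefSeq start, 5′ to 3′ on the gene's strand, from RefSeq with build GRCm38.p6. Hoxc4, a HOXC cluster gene, and Lin28b, an RNA-binding protein of fetal stem cells, lie in or beside long clusters of chosen regions described below and had H3K27ac at the start in both fusion lists and in no other list. Neither of these windows overlapped a chosen H3K4me1 region: the Hoxc4 window had no H3K4me1 peak in any list, and the Lin28b window had one in Flt3-ITD and in neither fusion list. Acy3, an aminoacylase, is shown because a chosen H3K4me1 region and fusion-only H3K27ac both overlapped the window. Gpnmb, a transmembrane glycoprotein of melanocytes and macrophages, is shown because it was the 1 window of 68 overlapping a chosen region with the letters CAATAAA, which resemble the binding sequence of HOXD13. The last bases of the Gpnmb window were found in 0 of 5 GENCODE transcripts of the gene, so GENCODE did not bear out that start. For Hoxc4, Lin28b and Acy3 at least 1 transcript held them. Capitals mark CAATAAA in Gpnmb and TGACAG, which resembles the MEIS binding sequence, in Lin28b. The Hoxc4 and Acy3 windows held no match to CAATAAA, TGATTTAT or TGACAG on either strand.
Hoxc4 (chr15:103034145-103034444, plus strand): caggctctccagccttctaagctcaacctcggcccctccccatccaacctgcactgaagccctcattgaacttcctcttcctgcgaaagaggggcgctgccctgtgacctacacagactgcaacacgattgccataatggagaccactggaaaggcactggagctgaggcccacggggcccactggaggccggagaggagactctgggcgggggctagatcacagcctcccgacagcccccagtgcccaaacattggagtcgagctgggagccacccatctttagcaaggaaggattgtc
Lin28b (chr10:45470152-45470451, minus strand): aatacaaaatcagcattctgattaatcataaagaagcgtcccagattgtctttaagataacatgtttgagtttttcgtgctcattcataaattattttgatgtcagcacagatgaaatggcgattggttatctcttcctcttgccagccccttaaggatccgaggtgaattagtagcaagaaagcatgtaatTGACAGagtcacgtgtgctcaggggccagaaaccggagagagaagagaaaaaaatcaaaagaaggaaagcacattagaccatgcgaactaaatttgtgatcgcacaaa
Acy3 (chr19:3986320-3986619, plus strand): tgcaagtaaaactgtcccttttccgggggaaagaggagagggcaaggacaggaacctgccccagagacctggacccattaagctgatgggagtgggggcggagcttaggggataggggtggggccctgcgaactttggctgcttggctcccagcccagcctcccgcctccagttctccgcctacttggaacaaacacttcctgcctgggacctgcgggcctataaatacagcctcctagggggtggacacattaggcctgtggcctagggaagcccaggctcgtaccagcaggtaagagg
Gpnmb (chr6:49036268-49036567, plus strand): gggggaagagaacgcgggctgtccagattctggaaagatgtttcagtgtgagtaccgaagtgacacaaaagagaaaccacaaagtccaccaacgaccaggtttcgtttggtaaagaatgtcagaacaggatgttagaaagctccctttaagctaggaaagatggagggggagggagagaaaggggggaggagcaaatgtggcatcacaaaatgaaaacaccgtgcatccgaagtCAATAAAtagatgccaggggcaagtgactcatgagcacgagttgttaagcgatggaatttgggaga

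Few promoter windows were involved. A chosen region overlapped 68 of 32619 RefSeq windows, which belong to 62 gene symbols. The HOXD13-like CAATAAA was in 1.47% of the 68 (0.260 to 7.87%) and in 4.52% of all windows. The HOX-PBX composite TGATTTAT was in 0 of 68, which allows up to 5.35%, and in 0.981% of all windows. TGACAG was in 10 of 68 (14.7%) against 18.9%. The RUNX sequence TGTGGT was in 27.9% (18.7 to 39.6%) against 16.6% of all windows and 22.7% of the 3591 windows that overlapped any union region. For the other motifs of the 16 searched, the interval of the share in the 68 windows included the share in all windows, and for RUNX it included that in windows with a union region. Each was searched on both strands, and a match is a run of letters, not a bound site. Median GC content was 53.2% in the 68 windows and 53.0% in all. Sequence of the chosen regions away from promoters was not analysed here.

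Taken one by one, most chosen regions were weak peaks. Of all chosen regions, 49.2% lay under 500 bp from an H3K4me1 peak of at least 1 list without the fusion. Fold enrichment, the authors' ratio of signal to control at the summit, had a median of 3.80 in NUP98-HOXD13 (1.90 to 7.50) and 3.71 in Flt3-ITD/NUP98-HOXD13 (1.75 to 8.47). Ranked within its own list, the median region stood at percentile 41.4 and 38.2. Regions held by all 6 lists stood at 81.0 and 84.0. Only 43 chosen regions (1.33%) reached a −log10 q of 5 in NUP98-HOXD13 and 207 (6.42%) in the double mutant, and 13 did so in both. The ranks in the fusion lists went together weakly (Spearman 0.177 over 3225 regions, all from the same pooled lists), and 11 regions were in the top 10% of both.

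The boundary of the rule was crowded. The median distance from a chosen region to the nearest H3K4me1 peak of a list without the fusion was 517 bp, 1588 regions (49.2%) lay under 500 bp from such a peak and 442 (13.7%) lay at least 5000 bp away. The same distance was not measured for other union regions, so whether the chosen ones lie closer is not known. Just outside the rule, 5451 regions were held by both fusion lists and by exactly 1 other list: 2451 by Flt3-ITD/Runx1-het, 1504 by Flt3-ITD, 767 by Runx1-het and 729 by wild type. In those extra lists the excluding peaks had median percentiles of 38.8 to 54.2. The number of chosen regions was not exceptional among the 15 pairs of lists. NUP98-HOXD13 and Flt3-ITD/Runx1-het alone shared 3562 regions, Flt3-ITD and Flt3-ITD/Runx1-het 3199, and the lowest pair, wild type and NUP98-HOXD13, 831. Merging peaks up to 500 bp apart lowered the number to 1652, and with lists shortened to equal length 47.5% of the 3225 were still overlapped by a region that met the rule.

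H3K27ac, which the rule did not use, followed the fusion at the chosen regions. A peak was present at 18.2% (16.9 to 19.6%) of them in NUP98-HOXD13 and at 20.1% (18.8 to 21.5%) in Flt3-ITD/NUP98-HOXD13. Wild type had it at 9.83% (8.85 to 10.9%), Runx1-het at 9.86% (8.88 to 10.9%), Flt3-ITD at 12.7% (11.6 to 13.9%) and Flt3-ITD/Runx1-het at 13.6% (12.5 to 14.8%). The intervals of the fusion lists lay above those of the other 4. Over all union regions the fusion lists did not stand out, with 17.1% and 19.5% against 15.8%, 16.2%, 19.2% and 19.9% in the same order as above. Regions held by exactly 2 lists of any other pair, 26675 in number, had H3K27ac in 10.9% and 13.4% in the fusion lists and in 10.5%, 11.1%, 13.5% and 14.4% in the others. The chosen regions thus lay above other 2-list regions in the fusion lists. None of those other regions had H3K4me1 in both fusion lists, so the sets differ in this too. In the other 4 lists the shares of the chosen regions were slightly lower. Their intervals included the share of the other 2-list regions in wild type, Flt3-ITD and Flt3-ITD/Runx1-het and lay below it in Runx1-het. H3K27ac was missing from every list at 68.4% of chosen regions (66.8 to 70.0%) and at 66.4% of all union regions.

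**Figure D1:**
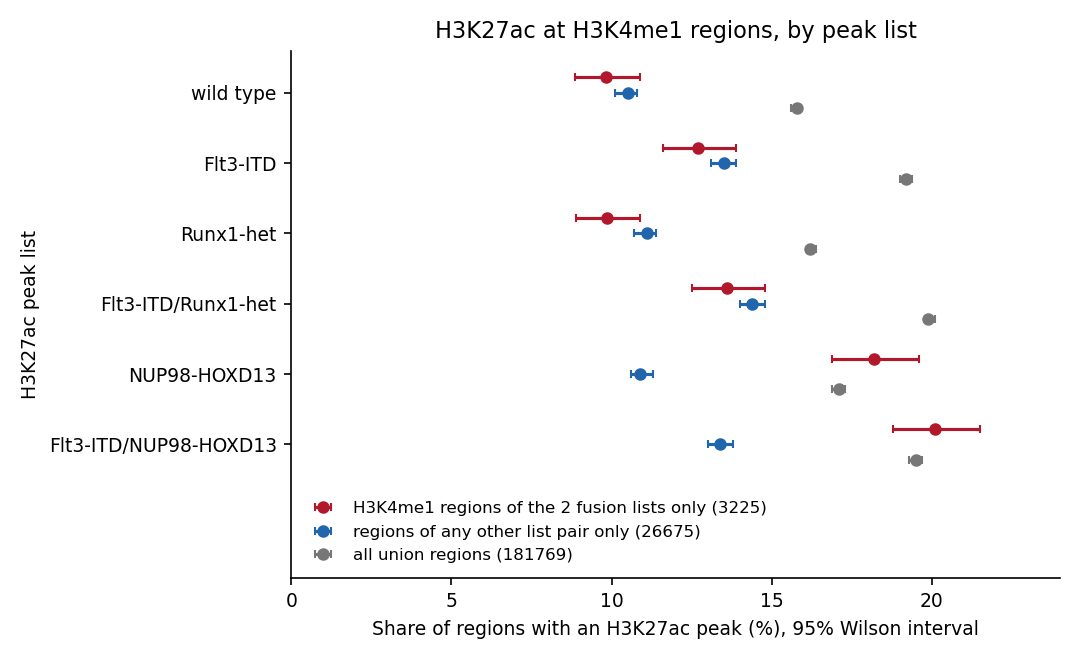
Share of H3K4me1 regions with an H3K27ac peak (x axis, %) in each of the 6 H3K27ac lists (y axis), for the 3225 regions of the fusion lists only, for the 26675 regions of any other list pair and for all 181769 union regions. Points are shares and bars 95% Wilson intervals. The chosen regions reach 18.2% and 20.1% in the fusion lists and 9.83% to 13.6% in the other 4.

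Fusion-only H3K27ac, meaning a peak in both fusion lists and in none of the other 4, was found at 118 chosen regions, 3.66% (3.06 to 4.36%). The share was 0.673% of all union regions and 0.540% (0.459 to 0.635%) of regions of any other list pair. Within the chosen regions, no other pair of H3K27ac lists came near: the next was Flt3-ITD/NUP98-HOXD13 with Flt3-ITD/Runx1-het, at 18 regions (0.558%, 0.353 to 0.881%). Asked of each list pair in turn, the share of H3K4me1 regions with H3K27ac in the same pair alone was 0.114 to 1.25% for the other 14 pairs. The share over all union regions was not counted for those pairs, so the comparison between pairs is not adjusted for it. The highest of these, 1.25% (0.920 to 1.70%), was Flt3-ITD with Flt3-ITD/Runx1-het. The 118 regions lay on 97 distinct H3K27ac union regions in 77 separate places. Those union regions can reach beyond the chosen region, and not all of the 97 were held by both fusion lists and no other. Only 101 chosen regions touched an H3K27ac union region that was held in this way. Seen from the other mark, 78 of the 993 fusion-only H3K27ac union regions (7.85%) touched a chosen H3K4me1 region, so most fusion-only H3K27ac lay elsewhere.

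**Figure D2:**
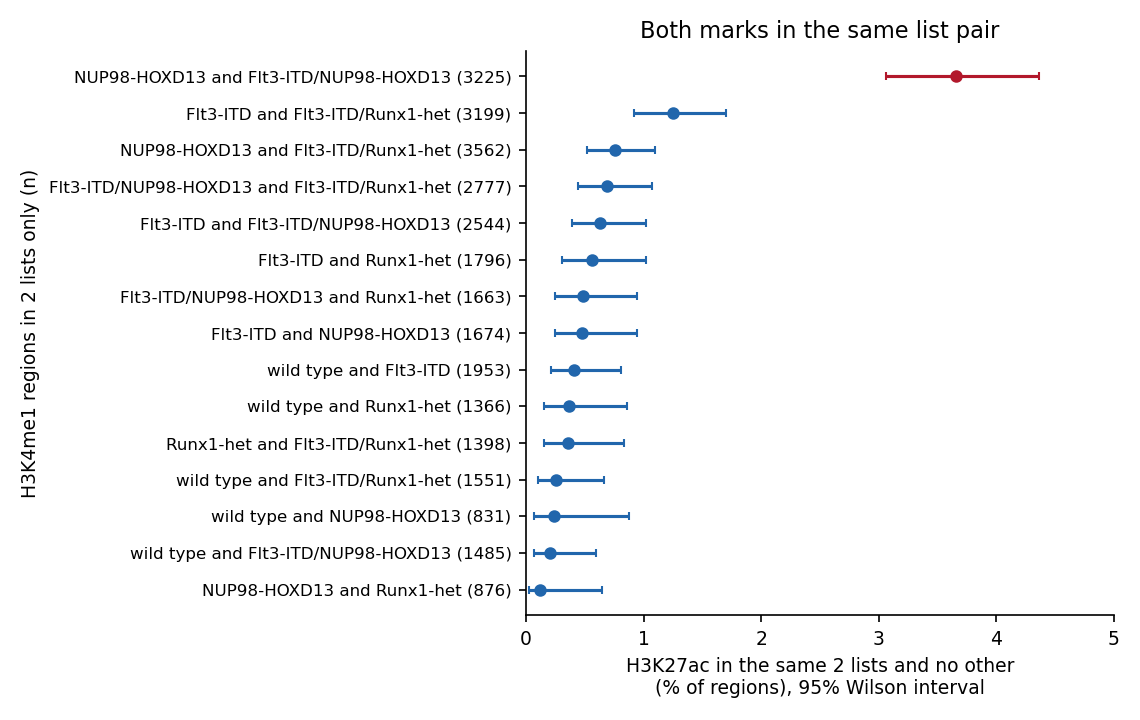
Share of H3K4me1 regions held by 1 pair of lists alone that had H3K27ac in the same pair alone (x axis, %), for each of the 15 pairs (y axis, number of regions in brackets). Points are shares and bars 95% Wilson intervals. The fusion pair is at 3.66% and the other 14 at 0.114 to 1.25%.

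The shared H3K27ac was concentrated where chosen regions lay close together. Regions with gaps of at most 25 kb were joined into runs, which gave 2682 runs, 2279 of them a single region and 10 of 5 or more. Fusion-only H3K27ac was at 1.45% of single regions (1.03 to 2.03%), 3.96% of those in pairs (2.69 to 5.77%), 8.82% in runs of 3 to 4 (5.84 to 13.1%) and 51.3% in runs of 5 or more (39 of 76 regions, on 23 H3K27ac union regions). Other list pairs also had such runs without this: NUP98-HOXD13 with Flt3-ITD/Runx1-het had 168 regions in 31 of them, of which 3 had H3K27ac in that pair alone. Leaving out the long runs, the fusion pair had 2.51% (2.02 to 3.12%) and the other pairs 0.114 to 1.18%. Counted by run, which sets aside neighbours, 77 of 2682 runs had it, 2.87% (2.30 to 3.57%), against 0.118 to 1.46% in the other pairs.

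Fusion-only H3K27ac was also more frequent at regions far from H3K4me1 of the other genotypes, at strong ones and at wide ones. It was at 2.20% of regions under 500 bp from a peak without the fusion (1.59 to 3.05%), at 3.43% from 500 to under 5000 bp (2.54 to 4.62%) and at 9.50% from 5000 bp (7.11 to 12.6%). It was at 28.8% (19.3 to 40.6%) of the 66 regions in the upper 25% of both fusion lists and at 2.97% (2.40 to 3.68%) of those with a lower percentile under 50. It was at 26.4% (19.5 to 34.7%) of the 125 regions of 1000 bp or more and at 2.05% (1.38 to 3.03%) of those under 400 bp. A wide region can meet a peak more easily, and the 3 properties overlap. Their separate parts were not tested.

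**Figure D3:**
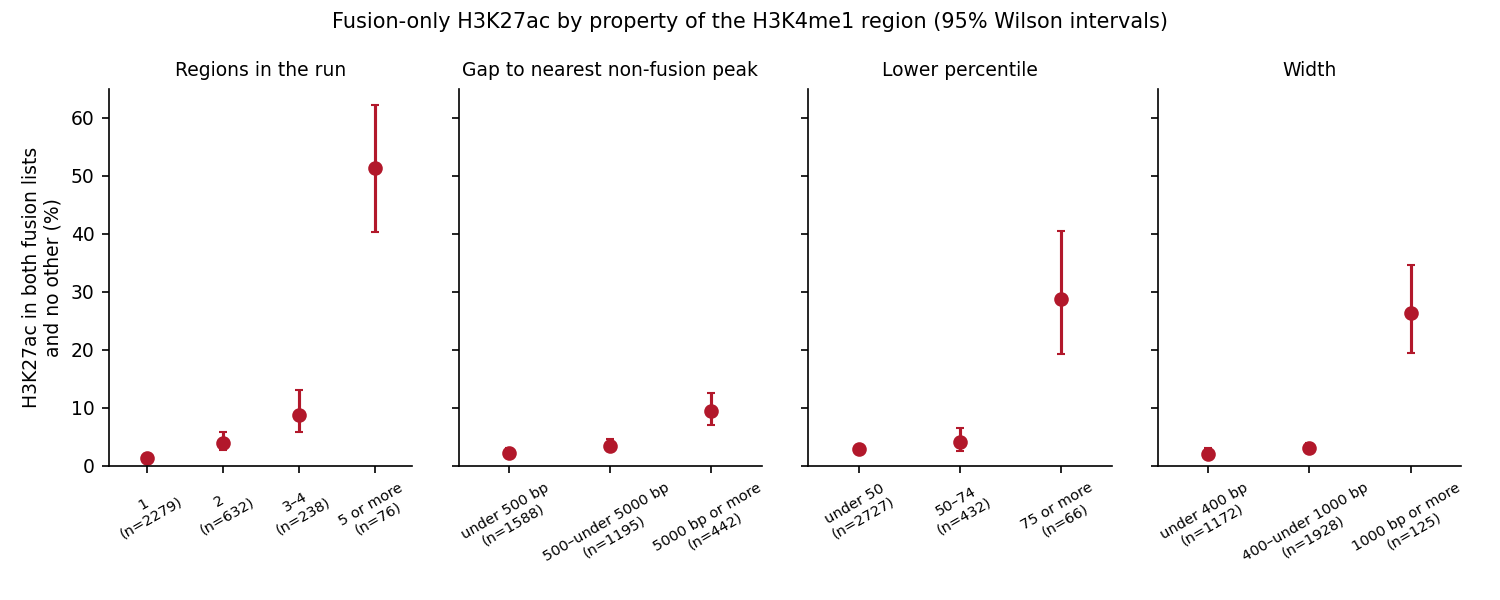
Share of chosen regions with H3K27ac in both fusion lists and no other (y axis, %) by the number of regions in the run, by the distance to the nearest H3K4me1 peak of a list without the fusion, by the lower of the within-list percentiles and by width (x axes, number of regions in brackets). Points are shares and bars 95% Wilson intervals. The share climbs from 1.45% at single regions to 51.3% in runs of 5 or more.

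The longest run covered the HOXC cluster, whose homeodomain transcription factors pattern the embryonic trunk. It held 13 regions in 64.4 kb (chr15:102993954-103058396, mm10). Of 25 union regions in that stretch, NUP98-HOXD13 held 23 and Flt3-ITD/NUP98-HOXD13 held 15, and each of the other 4 lists held 0. H3K27ac gave the same picture, with 9 peaks in either fusion list, up to 25.2-fold and 23.0-fold enriched, and none in any other list. The nearest H3K4me1 peak of another genotype was 3819 to 41113 bp from these regions, with a median of 29044 bp. The genotypes with and without the fusion did not share a single H3K4me1 region over this stretch.

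Inside the block, the strongest region by the lower of its ranks in the fusion lists lay in an intron of Hoxc4 (chr15:103029477-103032008), with fold enrichments of 5.73 (percentile 93.0) and 7.59 (98.9) and H3K27ac of 5.01 and 6.39. A region of 1765 bp covered the Hoxc6 promoter area (chr15:103007483-103009247), 0.326 kb from a start site, at 5.83 and 5.09, and had no H3K27ac peak in any list. An exon of Hoxc5 (chr15:103015782-103016502) carried a weak H3K4me1 region of 3.80 and 3.56 under the strongest H3K27ac of the block, 25.2 and 23.0. The region with the strongest H3K4me1 was thus not the one with the strongest H3K27ac. In the double mutant, however, H3K27ac of 23.0 was also at an intronic Hoxc4 region (chr15:103020187-103021102) with strong H3K4me1 of 6.01 (percentile 93.5). In NUP98-HOXD13 that region had 4.38 for H3K27ac and 4.12 for H3K4me1. H3K27ac was at 6 of the 13 regions in both fusion lists and at 1 more, by Hoxc6, in the double mutant only.

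The other HOX clusters differed in H3K4me1. Of the 35 union regions over the whole HOXC cluster, wild type and Runx1-het held 0, Flt3-ITD 1, Flt3-ITD/Runx1-het 2, NUP98-HOXD13 27 and Flt3-ITD/NUP98-HOXD13 20. HOXB had 28 union regions, of which the fusion lists held 17 and 12 and the others 3 (wild type), 9 (Flt3-ITD), 4 (Runx1-het) and 4 (Flt3-ITD/Runx1-het), and 2 met the rule. HOXA, active in normal progenitors, had 32, held by 13 and 18 in the fusion lists and by 8 to 14 in the others, and 2 met the rule. HOXD had 15 and none met it. Hoxd13, the partner in the fusion, had 2 union regions near its start, neither held by a fusion list. Over the 39 HOX genes, 19 of 136 union regions within 50 kb met the rule, a share with an interval of 9.13 to 20.8%, against 1.74% of the 133369 union regions within 50 kb of any start site. Of these 19, 13 belong to the HOXC run and are neighbours, not separate observations.

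Among the HOX cofactors, with 3 of 95 union regions within 50 kb of a start site chosen (3.16%, 1.08 to 8.88%), Pbx3 and Meis1 differed. Pbx3, a PBX homeodomain partner of HOX proteins, had 78 union regions in its body, of which Flt3-ITD/NUP98-HOXD13 held 67, NUP98-HOXD13 26 and the other lists 2 to 5. Its 13 chosen regions included a run of 10 in introns (chr2:34233686-34282522). There the double mutant ranked higher than the single mutant within their own lists at 8 of 10 regions, as at chr2:34238826-34239552, with a percentile of 99.0 against 37.6. H3K27ac over the run was weak, at most 3.61-fold in NUP98-HOXD13 and 4.74-fold in the double mutant, and fusion-only at 1 of 10. Over the whole gene body, however, the fusion lists had 9 and 15 H3K27ac peaks, up to 21.6-fold and 34.6-fold, against 2 peaks of at most 5.26-fold in Runx1-het and 0 in the other 3 lists. Meis1, a HOX partner of stem cells, had 70 union regions, held by wild type (37), Flt3-ITD (47), Runx1-het (48), Flt3-ITD/Runx1-het (27), NUP98-HOXD13 (15) and Flt3-ITD/NUP98-HOXD13 (33), and none met the rule. Pknox1, another HOX partner, had 1 chosen region, 194 bp from a peak of another genotype.

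Lin28b, whose protein blocks maturation of the let-7 microRNAs in fetal stem cells, had 8 chosen regions among 22 union regions, and by nearest start site no gene had more (Mlana also had 8). The run lies in introns on both sides of the RefSeq start shown above (chr10:45445351-45473011). NUP98-HOXD13 held 13 of the 22 regions and the double mutant 16, against 3 (wild type), 2 (Runx1-het), 2 (Flt3-ITD) and 0 (Flt3-ITD/Runx1-het). H3K27ac peaks in the gene body numbered 11 and 9 in the fusion lists and 0 in each other list. The strongest region (chr10:45464540-45466514) lay 3.69 kb from a start site, at 5.89 and 6.01 with H3K27ac of 14.6 and 8.82. H3K27ac was fusion-only at 5 of the 8, in a run with 4 H3K27ac peaks in NUP98-HOXD13 and 7 in the double mutant. Lin28a, its relative, had 1 union region and no chosen one.

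Other long runs lay at genes of varied function. The second longest had 12 regions in 59.5 kb (chr19:29697361-29756823), most of them in the uncharacterised gene 9930021J03Rik, with 1 at the promoter of Mlana, a melanocyte antigen. It carried the strongest fusion-only H3K27ac of the chosen regions, up to 46.7-fold and 59.5-fold, and 9 of 12 regions had it. The stretch held 6 H3K27ac peaks in NUP98-HOXD13 and 4 in the double mutant, so some of the 9 regions shared a peak. The single widest chosen region, 4475 bp (chr19:29731163-29735637), lay there. Flt3-ITD had 1 weak H3K27ac peak (2.68-fold) in the stretch and the other 3 lists without the fusion none.

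Adk, adenosine kinase, had 8 regions in 18.9 kb of intron (chr14:21138389-21157288), and all 8 had fusion-only H3K27ac, up to 25.1 and 36.5. They shared 3 H3K27ac peaks in NUP98-HOXD13 and 4 in the double mutant, so the 8 are not separate observations. No list without the fusion held any of the 11 H3K4me1 union regions in the stretch, and the nearest such peak was 16970 to 28557 bp away. Over the whole Adk body the other lists held 12 to 20 of 69 regions, all of them outside this stretch. Ascc3, a DNA-repair helicase subunit, had 5 regions in 9.35 kb (chr10:50633800-50643149), all with fusion-only H3K27ac in 1 peak of 29.8 and 43.6, and the other 4 lists held 0 of 9. A further region in Ascc3, nearest by start site to Sim1 (chr10:50765332-50766351), had 34.7 and 41.3. Phip, a chromatin reader, had 5 regions, 4 with fusion-only H3K27ac (25.2 and 12.5 at most). That stretch held 3 H3K27ac peaks in NUP98-HOXD13 and 5 in the double mutant.

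Not every run was of this kind. Dirc2, a lysosomal transporter, had 5 regions and fusion-only H3K27ac at 1, and Flt3-ITD also had 2 H3K27ac peaks there. The runs in Kctd1 and in Abtb2 had 5 regions each and fusion-only H3K27ac at none. Their median distances to a peak of another genotype were 433, 446 and 545 bp. In the HOXC, Adk and Ascc3 runs these were 29044, 24092 and 24209 bp, and in the 9930021J03Rik and Phip runs 8264 and 6987 bp. The distance did not order the runs by H3K27ac: it was 1352 bp in the Lin28b run, with fusion-only H3K27ac at 5 of 8 regions, and 5208 bp in the Pbx3 run, with 1 of 10. Ksr1 with 6 chosen regions of 94, Pitpnm2 with 5 of 39, Ablim1 with 4 of 75 and Eif4e3 with 4 of 20 also ranked among the 10 genes with most, and had no fusion-only H3K27ac at any.

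**Figure D4:**
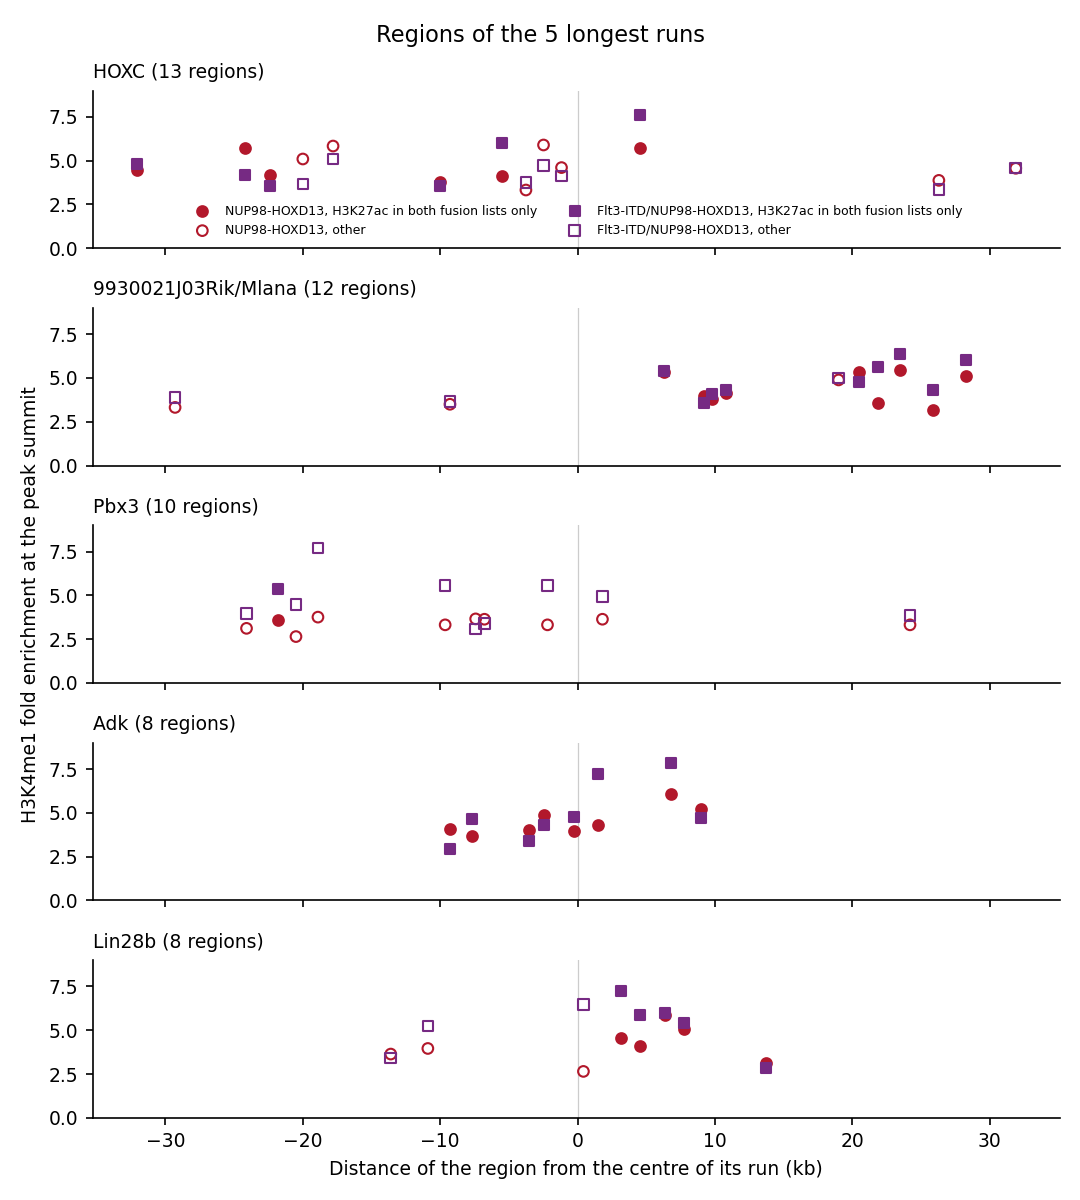
H3K4me1 fold enrichment at the peak summit (y axis) against distance from the centre of the run in kb (x axis) for the chosen regions of the 5 longest runs. Circles are NUP98-HOXD13 and squares Flt3-ITD/NUP98-HOXD13, and filled marks are regions with H3K27ac in both fusion lists and no other. All 8 Adk regions are filled and 1 of 10 in Pbx3.

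**Figure D5:**
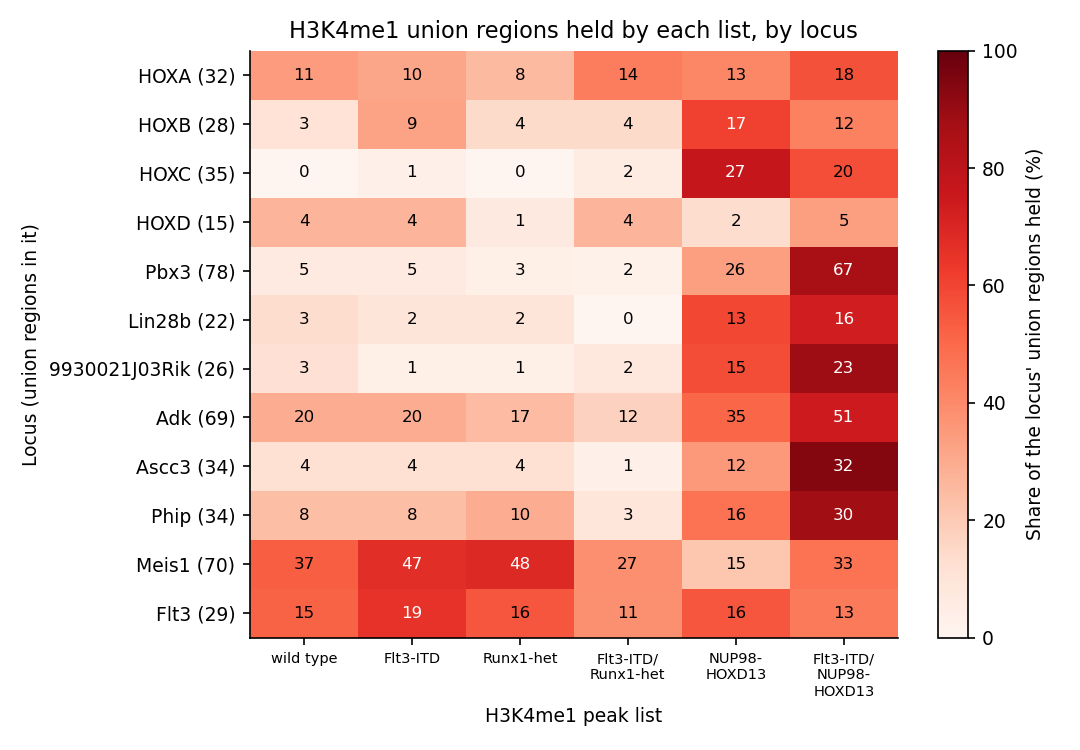
Number of H3K4me1 union regions held by each list (columns) at HOX clusters and selected genes (rows, total in brackets), coloured by share of the locus in %. At HOXC the fusion lists hold 27 and 20 of 35 regions and the other lists 0 to 2, and at Meis1 the Runx1-het list holds most, 48 of 70.

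The 10 strongest chosen regions, by the lower of their ranks in the fusion lists, were partly elsewhere. The first lay between genes, 520 kb from Rab28 (chr5:41186623-41187825), at 6.37 and 7.55, with H3K27ac in NUP98-HOXD13 alone. Those in Adk, Lin28b, Hoxc4 and Hmgn3 had fusion-only H3K27ac. An intron of Prim2, a DNA primase subunit (chr1:33583786-33584652, 7.50 and 6.08), had H3K27ac of 7.28 and 7.18 in the fusion lists and a weak peak of 3.15 in wild type. Hmgn3, a nucleosome-binding protein, had 5.73 and 6.01 with H3K27ac of 10.9 and 11.9. The regions by Zc3h12c, Scaf8, Lclat1 and Nbas had no H3K27ac peak in any list. They lay 47, 206, 131 and 3459 bp from an H3K4me1 peak of a list without the fusion. For the Adk, Lin28b, Hoxc4 and Hmgn3 regions this distance was 18153, 1759, 30207 and 396 bp. Strong H3K4me1 thus came both with and without the second mark.

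Near genes of normal blood lineages chosen regions were scattered, and none had fusion-only H3K27ac. Stem and multipotent progenitor genes had 12 of 745 (1.61%, 0.924 to 2.79%), with 3 at Runx1 and 2 each at Fli1, Lmo2 and Mecom. STAT5 targets had 6 of 375 (1.60%), 2 of them at Bcl2l1 and 1 each at Cish, Mcl1, Socs1 and Socs3. Interferon response genes had 4 of 178 (2.25%, 0.877 to 5.63%), at Ifit3, Irf1, Mx1 and Oasl2, and monocyte genes 5 of 218 (2.29%). B lymphoid genes had 0 of 105, which allows up to 3.53%. T and NK genes had 2 of 128, granulocyte genes 2 of 172, dendritic genes 2 of 248, mast cell and related genes 2 of 168, and erythroid and megakaryocyte genes 1 of 114 and 1 of 150. All these intervals include the 1.74% of the background.

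The controls set the scale of what single regions can show. Genes not used in blood had 3 of 47 (6.38%, 2.19 to 17.2%), at Actc1, Alb and Col2a1, and ubiquitous genes 2 of 99, both at Ywhaz. The interval of the genes not used in blood lies above the background of 1.74% and overlaps that of the HOX genes (9.13 to 20.8%). A share above the background is thus not particular to HOX genes. The 5 control regions had no H3K27ac in any list and lay 43 to 1315 bp from a peak of another genotype. Over the 13 lists other than HOX genes, HOX cofactors and leukaemia self-renewal genes, 29 of 42 chosen regions lay under 500 bp from such a peak. Of the 19 HOX regions, 1 did, but 13 of them are neighbours in the HOXC run. Among all chosen regions the share was 49.2%. Peaks of the lists without the fusion were used by the rule, so these distances are a description only. Leukaemia self-renewal genes had 14 of 443 (3.16%, 1.89 to 5.23%), and 8 of the 14 were Lin28b, with Eya1 and Lmo2 at 2 each and Igf2bp2 and Jmjd1c at 1 each. That interval also lies above 1.74%, but the 8 at Lin28b are neighbours in 1 run.

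The genes behind the genotypes were not among those chosen, apart from Runx1. Flt3, Nup98, Hoxd13 and Vav1 had no chosen region within 50 kb. Runx1 had 3 of 101, none with fusion-only H3K27ac. At the one in its intron (chr16:92822753-92823097) Flt3-ITD, Runx1-het and the Flt3-ITD/NUP98-HOXD13 double mutant had H3K27ac and NUP98-HOXD13 did not.

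By position the chosen regions were ordinary enhancer-type regions. Within 1 kb of a start site lay 10.3% (9.29 to 11.4%), against 9.48% of all union regions. Exons held 5.92%, introns 50.7% and the space between genes 33.1%, against 6.40%, 49.8% and 34.3% of all union regions. The median distance to a start site was 19.5 kb, and 18.2 kb over all union regions. Chosen regions made up 1.39 to 2.28% of the union regions of each autosome and 1.04% of those of chromosome X (19 of 1830). Fusion-only H3K27ac was at 4.10% of intronic, 8.38% of exonic, 2.72% of intergenic and 1.81% of promoter regions. Of the 6 promoter regions with it, the Acy3 region shown above had mid-ranking H3K4me1 (percentiles 53.4 and 48.9) and weak H3K27ac of 2.86 and 3.11 (percentiles 6.77 and 10.5), and the Zfpm2 region, by a cofactor of GATA factors, had 7.66 and 16.9.

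The opposite pattern, H3K4me1 in all 4 lists without the fusion and in neither with it, was found at 687 regions. All 4 H3K27ac lists without the fusion and neither with it had a peak at 20 of them, 2.91% (1.89 to 4.45%), against 0.228% of all union regions. The patterns ask for different numbers of lists, so their counts are not compared.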

How the data were processed

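H3K4me1 and H3K27ac were mapped in 39 samples of 6 genotypes, and 1 input sample was not analysed here. Groups came from the sample labels. Alignment used BWA with mouse build mm10 (GRCm38) and peak calling MACS2, per the submitters' processing notes. For versions, thresholds and the control behind each list, the sources used here give no details. The authors deposited 12 pooled narrowPeak lists, 1 per genotype and mark. Each deposited peak has a score (an integer of at most 1000, not used), a ratio (the authors' fold enrichment at the summit), the −log10 p and −log10 q of the peak caller, and a summit position (other, not used). The deposited fold enrichment served to rank peaks inside a list. Where values of several lists stand side by side they are a description, since the scale was not matched between lists. Depth per sample is unknown.

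Peaks on chromosomes 1 to 19 and X were merged (1 bp overlap), and 17 peaks on chromosome Y were left out. A list held a region through any peak overlapping by 1 bp. Shares have 95% Wilson intervals. Start sites came from GENCODE mouse release M21, basic set (41135 sites of 21728 protein-coding genes). A promoter was within 1 kb of a site and a region went to the nearest site within 50 kb. Promoter windows of 300 bases came from RefSeq. No genome sequence was used, so the planned GC and motif counts at summits were replaced by counts in these windows. The named genes are those of the 10 regions strongest in both fusion lists, the 10 with most regions, up to 4 per gene list (16 lists, 288 entries, 1 not annotated), those of the 10 strongest fusion-only H3K27ac regions, those of the longest runs, and Flt3, Runx1, Nup98, Hoxd13 and Vav1. Other genes (Meis1, Lin28a, Acy3, Gpnmb, Zfpm2 and the runs after the first 5) were named after their values were seen. The regions and gene lists were chosen with earlier results of these data known. The procedure was tested on simulated data and against bedtools. Alternatives were equal-length lists, thresholds on −log10 q, coverage, merging distance, autosomes only, windows around regions and start sites, allowing single lists, and run gaps. Tools were Python 3.11.15, pandas 2.3.3, NumPy 2.4.6, SciPy 1.17.1 and matplotlib 3.10.9.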

Additional observations from a re-analysis of the deposited data

How the results depend on the processing

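Of 81 alternative values, 54 stayed within 1.5 times a count, within the interval of a share or within 1 SD of a median, and 27 moved. The number of chosen regions was 3225. It was 2369 with lists of equal length (72676 peaks), 14 with a −log10 q of at least 5 asked of the fusion lists alone, 169 with it asked of every list, 1652 and 1193 with peaks merged up to 500 and 1000 bp, 4475 with coverage of 0.5 and 3206 on autosomes. With peaks of the Flt3-ITD/Runx1-het list allowed it was 5676, an alternative chosen after seeing the data, as were allowing the other 3 lists (3954 to 4729), allowing wild-type H3K27ac and other run gaps. Of the original 3225 regions, 43.6% were still overlapped by a region that met the rule after merging up to 500 bp and 47.5% with equal-length lists, and of the 76 in long runs 81.6% and 69.7%. After merging up to 1000 bp it was 29.4% of all and 57.9% of those in long runs. With coverage of 0.5 the long runs kept less, 51.3% against 66.0% of all. With a −log10 q of at least 5 in the fusion lists, 0.403% of all and 5.26% of those in long runs remained.

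With H3K27ac counted within 1000 bp the shares were 33.6% (NUP98-HOXD13) and 34.6% (Flt3-ITD/NUP98-HOXD13), against 22.7% (wild type), 20.6% (Runx1-het), 25.1% (Flt3-ITD) and 27.1% (Flt3-ITD/Runx1-het), and fusion-only H3K27ac was 5.21%. With H3K27ac lists of equal length (31973 peaks), wild type was 8.12%, NUP98-HOXD13 16.3% and Flt3-ITD/Runx1-het 11.3%. With regions from equal-length H3K4me1 lists the shares were 22.8% and 23.6% against 12.1%, 12.2%, 15.6% and 17.9% in the same order, and fusion-only H3K27ac was 4.39%. The fusion lists stayed above the other 4 in each of these, and the cause of the shifts was not tested. Promoters within 2 kb held 16.5% and gene bodies then 51.6%. HOX cofactors had 0% and the background 1.62% with regions from equal-length lists. Runs of 5 or more numbered 20 with gaps of 50 kb. GC and motif counts at the double-mutant summit and in 200 bp were not run, for want of a genome sequence. No paired analysis was possible because each group is 1 pooled list and replicate numbers only follow accession order.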
